A study of Homo sapiens with 9 samples.

Results

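The 1493 transcribed loci described here are the GENCODE rows of a gene count table that still carry the name of a genomic clone in place of a gene symbol, such as RP11-3L8.3, and that averaged at least 20 raw counts over 9 libraries. They were drawn from 57820 GENCODE rows, of which 16012 carry such a name at any count. The loci were thus chosen by their measured mean count, which ranged from 20 to 16468 with a median of 58.6, and 645 loci averaged under 50 counts. Just inside the minimum lay RP11-405L18.2, RP11-613C6.4, RP11-805J14.5 and RP4-613B23.1 at a mean of 20 counts and RP13-314C10.5 at 20.1. Just outside lay CTC-573N18.1, RP1-228H13.1, RP1-283E3.4, RP11-1E1.2 and RP11-276H7.3 at 19.9.

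All libraries were made from total RNA of PANC-1, a human pancreatic carcinoma cell line, kept for 12 h in hypoxia. A first group of 3 libraries received the solvent, 0.04% DMSO, a second group of 3 received 42 nM rakicidin A, and the last 3 received 41 nM BE-43547A1. No normoxic library entered, the solvent content of the compound media is not given in the sources used here, and the labelled doses of the compounds differ by 1 nM. Rakicidin A is a bacterial natural product known for its toxicity to hypoxic cells. The labels leave unsaid whether a group's libraries are separate cultures. Its p-values are therefore set against a library-to-library spread that may be technical.

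A clone name is the name of the bacterial or phage artificial chromosome in which the genome project sequenced the locus, followed by a running number. Such names were given to transcribed loci without an approved symbol: antisense transcripts that run opposite a gene, long intergenic noncoding RNAs (lincRNAs), RNAs inside an intron, and processed pseudogenes, which are reverse-transcribed copies of messenger RNAs inserted elsewhere in the genome. Promoters often fire in both directions, and the short-lived RNA that leaves a coding gene's promoter backwards is known to be cleared by the nuclear exosome.

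By Ensembl identifier, 1360 of the 1493 loci matched GENCODE release 29 and 133 did not. Of the matched loci, 509 were processed pseudogenes, 419 antisense, 201 lincRNA, 79 sense intronic, 53 other pseudogenes, 36 processed transcripts, 30 sense overlapping, 24 protein coding and 9 of other classes. A current symbol existed for 618. The names go back to 1288 clones, 176 of which hold more than one locus (381 loci in all), so neighbouring loci are not independent of each other.

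The promoters of 3 loci are printed because these loci rose or fell with both compounds and have an entry in the RefSeq promoter table, which held 199 of the 1493. Each runs from 250 bases before to 50 bases after the RefSeq start, 5′ to 3′ on the strand of the locus, on GRCh38.p14. They lie at chr9:12814340-12814639, chr1:919643-919942 and chr19:23416025-23416324, all on the minus strand. For RP11-54O7.3 the RefSeq start differs from the GENCODE start. Its stretch lies wholly inside the single exon that GENCODE places at chr1:916865-921016. It is therefore not the sequence before the GENCODE start of the counted locus. Capitals mark TGATGNAA (the ATF4 composite element), TGANTCA (an AP-1 site), CCAAT and GGGCGG, searched on both strands.
RP11-3L8.3: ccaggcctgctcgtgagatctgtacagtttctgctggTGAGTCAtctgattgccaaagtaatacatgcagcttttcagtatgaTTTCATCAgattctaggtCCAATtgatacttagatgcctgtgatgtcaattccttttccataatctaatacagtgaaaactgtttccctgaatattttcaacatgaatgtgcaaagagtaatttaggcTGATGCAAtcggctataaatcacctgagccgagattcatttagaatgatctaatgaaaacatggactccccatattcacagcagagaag
RP11-54O7.3: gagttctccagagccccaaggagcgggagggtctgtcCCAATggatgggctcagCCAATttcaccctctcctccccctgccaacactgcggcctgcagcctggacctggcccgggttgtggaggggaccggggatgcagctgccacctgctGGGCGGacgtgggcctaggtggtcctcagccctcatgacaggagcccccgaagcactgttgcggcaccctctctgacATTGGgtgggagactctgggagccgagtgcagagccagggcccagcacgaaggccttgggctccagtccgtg
CTB-175P5.4: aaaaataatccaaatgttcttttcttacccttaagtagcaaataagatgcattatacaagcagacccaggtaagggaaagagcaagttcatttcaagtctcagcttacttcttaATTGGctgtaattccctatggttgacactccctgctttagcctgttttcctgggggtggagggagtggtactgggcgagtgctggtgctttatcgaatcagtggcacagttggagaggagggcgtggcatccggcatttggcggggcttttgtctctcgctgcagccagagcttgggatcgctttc

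Positions are counted from the start in the RefSeq table. In RP11-3L8.3 the element TGATGNAA matched at -167 (minus strand) and at -39 (plus strand), TGANTCA at -213 and CCAAT at -149. In the stretch of RP11-54O7.3, which lies inside its GENCODE exon, CCAAT matched at -213, -196 and -22 and GGGCGG at -99. In CTB-175P5.4, CCAAT matched at -136. Over the 34943 promoters of the table, TGATGNAA was held by 3.62%, TGANTCA by 7.72%, CCAAT by 34.6% and GGGCGG by 44.9%. Among the 199 promoters of clone-named loci the shares were 2.51%, 5.03%, 37.2% and 61.3%. The cyclic AMP response element TGACGTCA was held by 1.84% of all promoters and 4.02% of these, and the ER stress response element by 0.0773% of all and none of these 199. A match is a match of letters, not a shown binding site.

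For the pseudogenes, stretches of 76 bases, the length of a read, are printed against the coding sequence they were copied from. Where copy and parent do not differ, their reads cannot be told apart by sequence alone. The stretches come from the GENCODE release 29 transcripts. Capitals mark bases at which a pseudogene differs from its parent and, in the parent, bases at which any of its pseudogenes shown differs. The first set covers coding positions 918 to 993 of HSPA5, the second 210 to 285 of RPS10.
RP11-334L9.1: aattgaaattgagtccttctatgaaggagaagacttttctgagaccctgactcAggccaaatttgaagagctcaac
RP11-39C10.1: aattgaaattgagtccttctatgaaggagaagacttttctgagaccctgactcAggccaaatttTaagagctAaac
HSPA5: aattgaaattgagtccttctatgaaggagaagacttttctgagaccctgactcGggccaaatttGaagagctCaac
RP1-34B20.4: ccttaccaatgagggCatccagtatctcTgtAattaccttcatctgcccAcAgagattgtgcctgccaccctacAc
RP11-425L10.1: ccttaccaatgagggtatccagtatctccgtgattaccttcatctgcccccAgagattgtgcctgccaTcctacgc
RPS10: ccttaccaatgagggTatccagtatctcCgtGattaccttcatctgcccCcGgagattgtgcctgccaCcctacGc

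Over all aligned coding bases, RP11-334L9.1 and RP11-39C10.1 were 95.5% and 93.1% identical to HSPA5, and RP1-34B20.4 and RP11-425L10.1 were 93.3% and 99.6% identical to RPS10. The most counted locus of all, RP11-466H18.1 (also RPL36AP37), was 100% identical to RPL36A over its whole 321 bases. No base of it is marked in a stretch from coding positions 176 to 251.
RP11-466H18.1: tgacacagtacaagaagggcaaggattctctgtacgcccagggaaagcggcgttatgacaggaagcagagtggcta

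The libraries held between 26203326 and 45048999 counts on annotated features. Reads in no feature made up 20.3% to 20.8% of the DMSO libraries, 16.4% to 18.0% of the rakicidin A libraries and 18.1% to 19.2% of the BE-43547A1 libraries, and reads that did not align uniquely made up 19.1% to 22.4%. The epithelial markers summed to 3371 to 3551 counts per 1000000 (CPM) in DMSO, 2233 to 2358 with rakicidin A and 3334 to 3685 with BE-43547A1. All 7 had counts. The 7 leukocyte markers summed to at most 4.37 CPM, with CD3E at 0, the 7 stromal markers to at most 15.9, and the endothelial markers to at most 0.266. The 13 mitochondrially encoded genes summed to 2819 to 5053 CPM in DMSO, 2395 to 2651 with rakicidin A and 2350 to 2990 with BE-43547A1. The part of these differences in the results below was not tested. In bulk RNA, fewer cells of a kind and less RNA per cell cannot be told apart.

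The clone-named loci together took a small share of each library's GENCODE counts. The share was 1.20%, 1.26% and 1.20% in the DMSO libraries, 1.08%, 1.01% and 1.05% with rakicidin A, and 1.14%, 1.16% and 1.14% with BE-43547A1. No group overlapped another. The difference was -0.17 percentage points for rakicidin A against DMSO, -0.07 for BE-43547A1 against DMSO and -0.10 between the compounds, each with p = 0.1 in a two-sided exact permutation test and an adjusted p of 0.1 over the 3 pairs. This exact test of 3 libraries against 3 can give no p below 0.1. Without CTD-2328D6.1, a locus highest with rakicidin A, the differences were larger, at -0.24 for rakicidin A against DMSO and -0.16 between the compounds.

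Both compounds moved loci in both directions. With rakicidin A against DMSO, 411 of the 1493 loci rose and 445 fell at an adjusted p below 0.05 (edgeR quasi-likelihood test, Benjamini-Hochberg over all 22353 features tested), where the background share of features called was 64.7%. The members called made up 57.3%, below that background, and the median log2 change was -0.04 against -0.02 over all features. With BE-43547A1 against DMSO, 554 loci rose and 440 fell, or 66.6% against a background of 70.4%, with a median of 0.11 against -0.00. Setting the compounds against each other, 236 loci were higher with rakicidin A and 421 lower, or 44.0% against a background of 46.6%. Over all features that contrast was nearly even, with 24.1% higher and 22.5% lower, while the loci had 15.8% higher and 28.2% lower and a median of -0.11 against -0.02.

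At a log2 change of at least 1, 191 loci rose and 224 fell with rakicidin A (background share called 27.8%), 303 rose and 236 fell with BE-43547A1 (background 31.7%), and 36 were higher and 135 lower directly (background 9.69%). The CPM values of the groups did not overlap for 60.1%, 66.6% and 52.6% of the loci in the 3 contrasts, against 67.5%, 71.6% and 57.6% of all features.

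These counts depend on what is taken as unchanged. The tests scaled libraries by TMM, a trimmed mean of ratios. Scaled by total counts alone, the median of all features moved to -0.38, -0.24 and -0.14 in the 3 contrasts, and the loci split 248 higher to 703 lower with rakicidin A, 432 to 570 with BE-43547A1 (where the majority turns over) and 178 to 512 between the compounds. All features then split 4477 to 11392, 5951 to 10450 and 3923 to 6868. Values below are on the TMM scale, and a majority of a class of loci that turns over under total counts is named. Splits of gene lists, of pairs and of pseudogenes by parent are given on the TMM scale only. Their majorities may turn over too.

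The minimum on the mean over 9 libraries lets in a locus through a single group in which it is high. Of the 1493 loci, 179 averaged under 20 counts in DMSO, 270 with rakicidin A and 55 with BE-43547A1. Of those 179, 118 were called higher with rakicidin A and 155 with BE-43547A1, which the choice of loci favours. Among loci named below, CTB-175P5.4, CTD-2366F13.1, RP11-1094H24.4, RP11-328N19.1 and RP11-761E20.1 averaged under 20 counts with each compound and passed only through DMSO, which favours a fall. Of the rises named below, RP11-439A17.9, RP1-78O14.1, RP11-3L8.3, RP11-12M5.4, RP11-334L9.1 and RP11-39C10.1 averaged under 20 counts in DMSO. So did RP11-325K4.2, RP11-325K4.3, RP11-680H20.2, RP4-676J13.2, RP3-393E18.2 and RP11-98F14.11. These rising loci passed only through treated libraries, which favours a rise. Over the 1108 loci with a mean of at least 20 in every group, a limit chosen after seeing the data, 293 rose and 316 fell with rakicidin A, 377 rose and 328 fell with BE-43547A1, and 215 were higher and 282 lower between the compounds.

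Shares at like mean count differed by bin and were not tested against each other. Between 20 and 50 counts, which held 645 of the loci, 19.7% of loci and 19.7% of other GENCODE rows rose with rakicidin A, and 31.5% and 29.7% with BE-43547A1. Between 100 and 200 counts more of the loci rose and fewer fell than of the other rows: 65 of 198 loci rose and 65 fell with rakicidin A (32.8% each), against 20.9% and 45.9% of 1222 other rows. At 1000 counts and over the order was the other way, with 31.7% of 63 loci rising against 51.8% of 5963 other rows. Among the 13997 other GENCODE rows with a mean of at least 20, 36.6% rose and 35.3% fell with rakicidin A, 34.4% rose and 39.7% fell with BE-43547A1, and 34.0% were higher and 20.3% lower with rakicidin A than with BE-43547A1. The loci were also less even between libraries: the median range within a group on the log2 scale was 0.39 in DMSO, 0.37 with rakicidin A and 0.34 with BE-43547A1, against 0.21, 0.14 and 0.15 for the other rows, whose counts are higher.

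**Figure D1:**
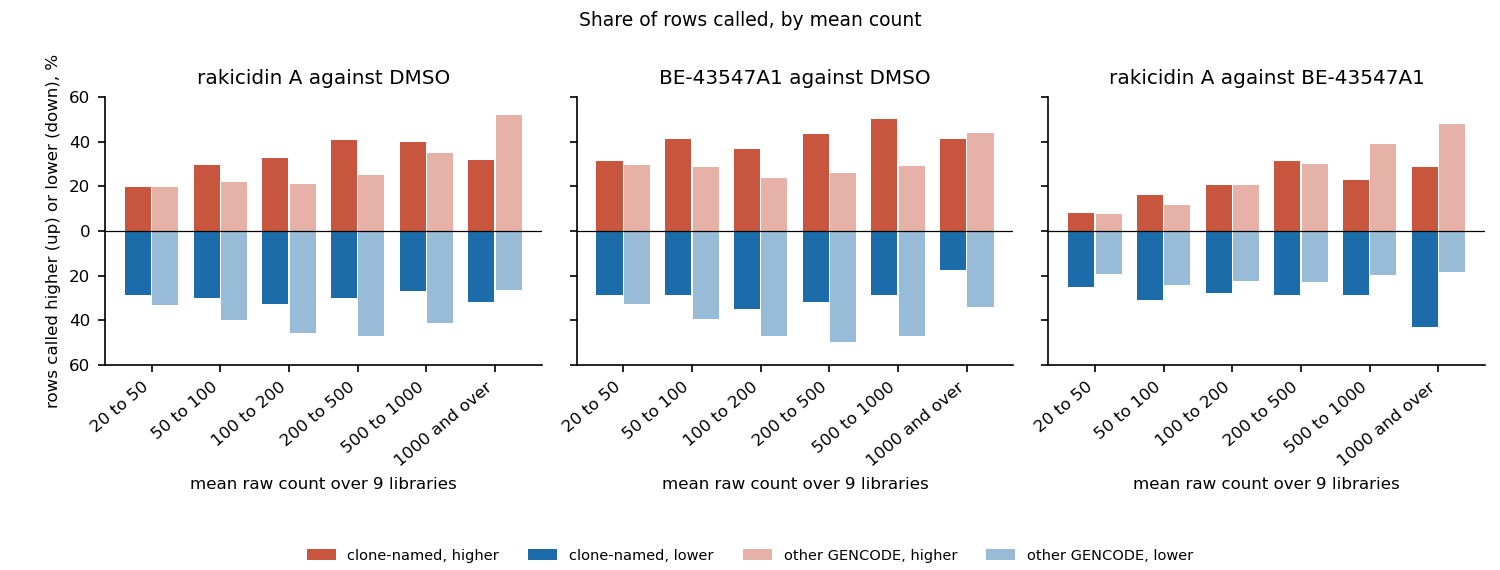
Share of rows called higher (upward bars) or lower (downward bars), in percent, for the clone-named loci (dark) and other GENCODE rows (pale) in 6 bins of mean raw count over 9 libraries, for each contrast. Between 20 and 50 counts, 53 of 645 loci (8.22%) are called higher with rakicidin A than with BE-43547A1, beside 119 of 1552 other rows (7.67%), and 27 of 63 loci with 1000 counts and over are lower.

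Antisense loci rose more often than they fell with BE-43547A1. Of 419, 205 rose and 109 fell with BE-43547A1 (median log2 change 0.45), and 133 rose and 119 fell with rakicidin A (median 0.06). Set directly against each other, 35 were higher with rakicidin A and 172 lower, with a median of -0.37. Under total counts alone the split with BE-43547A1 was 177 to 130, with a median of 0.22, and that with rakicidin A turned over to 80 to 166, while the direct split was 31 to 197. The 295 other GENCODE antisense rows of the same minimum, which have symbols, split 114 to 117 with BE-43547A1, 64 to 127 with rakicidin A and 29 to 108 directly, with a direct median of -0.28. The count table's strand setting is not given in the sources used here, so reads of an antisense locus and of the gene opposite cannot be told apart where they overlap.

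Processed pseudogenes also rose more often than they fell. Of 509, 202 rose and 83 fell with BE-43547A1 (median 0.21), 129 rose and 96 fell with rakicidin A (median 0.03), and 71 were higher and 144 lower between the compounds (median -0.12). Scaled by total counts alone the first split was 137 to 140 and the second 69 to 225, both turned over. The 972 processed pseudogenes with other names split likewise, with 387 rising and 168 falling with BE-43547A1, 252 and 170 with rakicidin A, and 118 higher and 291 lower directly.

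More lincRNAs fell than rose with either compound. Of 201, 58 rose and 90 fell with rakicidin A (median -0.26), and 62 rose and 83 fell with BE-43547A1 (median -0.25). Of the 165 other lincRNA rows, 48 rose and 83 fell with rakicidin A (median -0.37) and 45 rose and 91 fell with BE-43547A1 (median -0.47). For the clone-named lincRNAs the direct contrast gave 41 higher and 50 lower with a median of 0.00. Sense intronic loci, which lie within an intron on the strand of the host gene, had 22 of 79 higher with rakicidin A than with BE-43547A1 and 8 lower, with a median of 0.27. Over all features tested 24.1% were higher and 22.5% lower, and of the 42 other sense intronic rows 10 were higher and 5 lower. The 133 loci without an entry in release 29 split 33 to 55, 31 to 63 and 37 to 20 in the 3 contrasts. In the smaller classes, 10 of 36 processed transcripts rose and 17 fell with rakicidin A, and 13 of 53 other pseudogenes rose and 24 fell. All 6 called of 9 loci in the remaining classes fell with each compound.

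**Figure D2:**
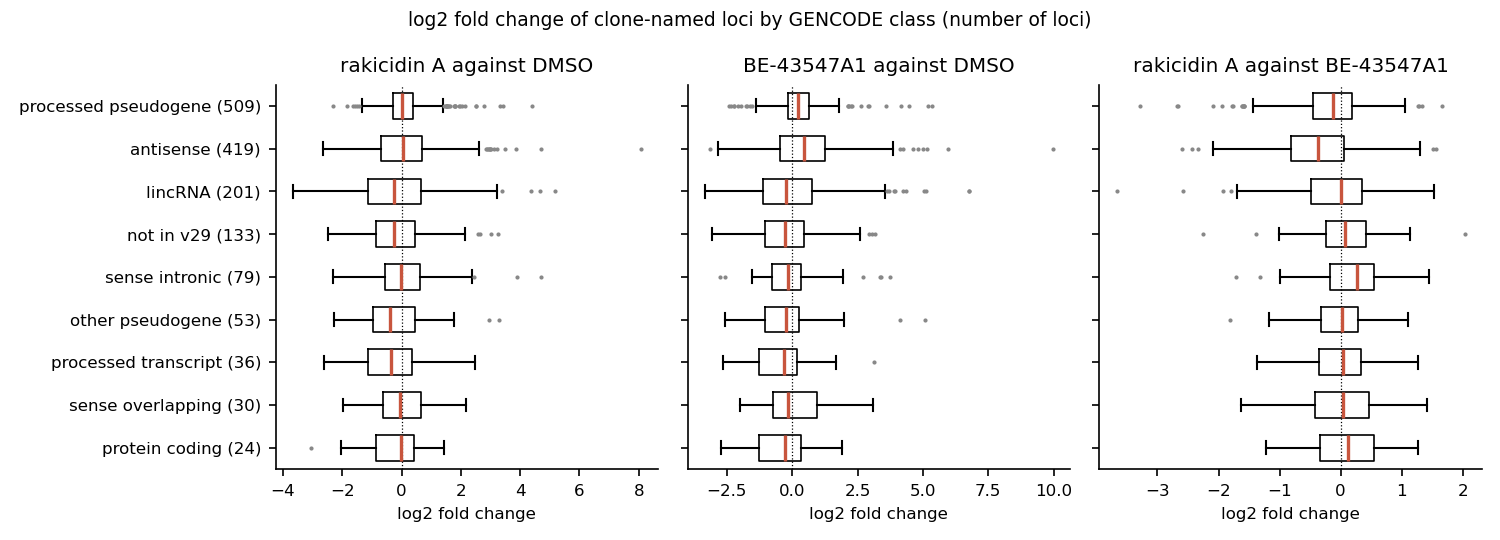
Box plots of log2 fold change (TMM scale) of the clone-named loci by GENCODE class, in 3 panels for the 3 contrasts, with the number of loci beside each class. The antisense box lies to the right with BE-43547A1 (median 0.45) and to the left in the direct contrast (median -0.37), while the lincRNA box is left of 0 with each compound.

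Most loci lay on or near a coding gene: 535 overlapped one on the opposite strand, 282 on the same strand, 63 started head-to-head within 2 kb, 308 lay otherwise within 50 kb and 172 had none within 50 kb. The head-to-head loci showed the widest downward shift of these positions. Of 56 that were no pseudogenes and had a tested partner, 7 rose and 42 fell with rakicidin A and 6 rose and 32 fell with BE-43547A1. Their median log2 changes were -0.89 and -0.91. The 56 coding genes that start within 2 kb on the opposite strand had medians of 0.39 and 0.26. Under total counts alone the medians of the loci were -1.25 and -1.15, and those of all features -0.38 and -0.24. The partner medians and the pair directions below are on the TMM scale only and depend on that choice. In the direct contrast 6 of the head-to-head loci were higher and 7 lower. The 55 other noncoding GENCODE rows in that position fell too, 36 against 8 that rose with rakicidin A and 38 against 7 with BE-43547A1. Where both the locus and its coding partner were called with rakicidin A, 25 of 40 pairs moved in opposite directions, whereas with BE-43547A1 16 pairs moved the same way and 16 in opposite directions. Of the other noncoding rows called together with their partner with rakicidin A, 19 moved the same way and 15 in opposite directions.

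TFIP11-DT (CTA-445C9.14, chr22:26512537-26514568, plus strand, a single exon) starts 32 bases from TFIP11, which encodes a splicing factor. It had 4.98, 4.49 and 4.21 CPM in DMSO, 0.764, 0.799 and 0.816 with rakicidin A and 0.607, 0.840 and 0.471 with BE-43547A1. Every treated library was below every DMSO library. The log2 change was -2.52 (SE 0.19, adjusted p = 1.4e-09) with rakicidin A and -2.82 (SE 0.18, adjusted p = 1.3e-10) with BE-43547A1 in edgeR, while TFIP11 itself rose by 0.59 with rakicidin A and had a change of -0.01 with BE-43547A1 (adjusted p = 0.84).

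RP11-141B14.1 (chr2:113888203-113889750, minus strand) starts 210 bases from ACTR3, a subunit of the actin-nucleating Arp2/3 complex. Its CPM was 2.35, 2.02 and 1.76 in DMSO, 0.146, 0.256 and 0.043 with rakicidin A and 0.675, 0.494 and 0.366 with BE-43547A1. All 3 groups were apart. It fell by 3.66 on the log2 scale with rakicidin A and by 1.97 with BE-43547A1, and the direct difference of -1.69 had an adjusted p of 0.0038 in edgeR, while ACTR3 rose by 0.37 and 0.36. Head-to-head partners could also move along with the locus: RP11-359E3.4 (chr10:86749754-86756298, minus strand) had log2 changes of -2.18 and -3.13, and BMPR1A, a BMP receptor whose start lies 303 bases away, of -0.89 and -0.97. PICART1 (RP11-1094H24.4) had log2 changes of -2.72 and -2.15 beside ITGA3, an integrin subunit, at -0.29 (adjusted p = 0.00018) and 0.01 (adjusted p = 0.85). GVQW3 (RP11-111M22.2), annotated as protein coding, had log2 changes of -3.07 and -2.73 beside PRKRIR at 0.37 and -0.10.

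Loci inside a gene were set beside their hosts. Across the 70 sense intronic loci with a tested host, the log2 changes of locus and host correlated with Pearson's r of 0.86 for rakicidin A, 0.83 for BE-43547A1 and 0.57 in the direct contrast. The median changes of these loci were 0.07 and -0.11 with rakicidin A and BE-43547A1, and those of the hosts 0.26 and 0.14. Across 373 loci opposite a gene r was 0.47, 0.47 and 0.21, and across the 56 head-to-head loci 0.46, 0.48 and 0.40. These are descriptions across loci, and both members of a pair share libraries and, where they overlap, possibly reads.

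**Figure D3:**
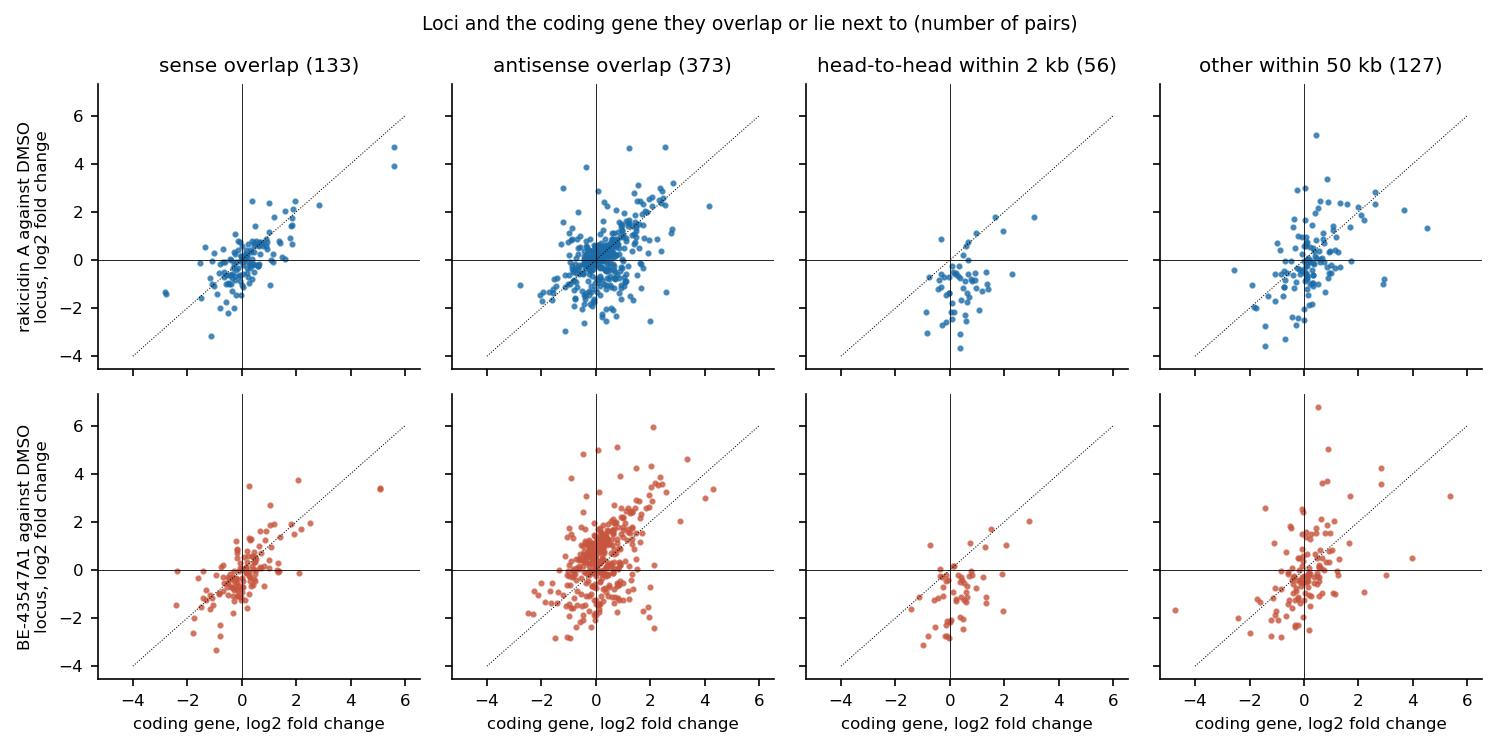
Log2 fold change of a clone-named locus (vertical axis) against that of the coding gene it overlaps or lies next to (horizontal axis), on the TMM scale, 1 point per pair and rows of panels for rakicidin A and BE-43547A1 against DMSO, with the number of pairs by position. Sense overlapping pairs lie along the diagonal (r 0.75 with rakicidin A over 133 pairs), while 42 of 56 head-to-head loci were called lower with rakicidin A.

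The sense intronic loci RP11-325K4.2 and RP11-325K4.3 (chr16:56941028-56941726 and chr16:56940278-56941342, plus strand) lie in HERPUD1, which takes part in the degradation of misfolded proteins of the endoplasmic reticulum (ER). RP11-325K4.2 had 0.214, 0.0948 and 0.284 CPM in DMSO, 4.69, 5.88 and 5.41 with rakicidin A and 2.09, 1.63 and 2.56 with BE-43547A1. The 3 groups were apart, rakicidin A the highest. It rose by 4.71 (SE 0.27) and 3.36 (SE 0.30), and the direct difference was 1.35 (adjusted p = 5e-06, edgeR). RP11-325K4.3 rose by 3.90 and 3.41. HERPUD1 had a mean of 17.5 ± 1.3 CPM (SD, n = 3) in DMSO and rose by 5.57 and 5.08.

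RP3-368A4.5 and RP3-368A4.6, of the same clone, both fell. The CPM of RP3-368A4.5 was 60.4, 57.7 and 52.7 in DMSO, 10.4, 10.8 and 10.5 with rakicidin A and 6.84, 7.31 and 8.78 with BE-43547A1. The groups did not overlap. It fell by 2.43 (SE 0.09) and 2.90 (SE 0.09), and was 0.47 higher with rakicidin A (adjusted p = 0.00051, edgeR). RP3-368A4.6, which has an entry as sense intronic, fell by 2.31 and 2.59. It has no coding gene within 50 kb, and noncoding hosts were not searched, so its host was not compared. RP11-212I21.4, which overlaps LPCAT2, a lysophospholipid acyltransferase, on the same strand, fell by 3.14 and 3.34, and LPCAT2 by 1.15 and 0.96.

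An antisense locus rose from a count of 0. RP11-439A17.9 (chr1:121090289-121097655, minus strand, opposite FCGR1B) had 0 counts in all 3 DMSO libraries, 31, 28 and 22 with rakicidin A and 163, 170 and 120 with BE-43547A1. Against a floor of 3 counts over the group it was at least 32.8-fold higher with rakicidin A and at least 122-fold higher with BE-43547A1, and the direct difference was -1.89 (SE 0.19, adjusted p = 6.1e-07, edgeR). FCGR1B belongs to a family of near-identical Fc receptor genes, so the assignment of these reads is uncertain. RP1-78O14.1, a lincRNA that overlaps SYT1, a synaptic vesicle gene, on the other strand, had 0, 0 and 3 counts in DMSO, 20, 41 and 10 with rakicidin A and 53, 51 and 40 with BE-43547A1. The ratios were 28.7 (95% exact counting interval 9.44 to 143) and 38.8 (13.0 to 190).

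LURAP1L-AS1 (RP11-3L8.3, chr9:12698554-12814345, minus strand, 5 exons), whose promoter is printed above, had 0, 0.0316 and 0.0852 CPM in DMSO, 1.24, 1.12 and 1.07 with rakicidin A and 2.65, 2.92 and 2.59 with BE-43547A1. The groups were apart, and the DMSO values rest on 0, 1 and 3 counts. It rose by 4.71 (SE 0.43) and 5.96 (SE 0.35), and was 1.24 lower with rakicidin A than with BE-43547A1 on the log2 scale (adjusted p = 4.3e-05, edgeR). LURAP1L on the other strand rose by 2.53 and 2.11, and its direct difference of 0.43 had the opposite sign.

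Other loci overlapped a coding gene on the opposite strand. RP11-110I1.6 (chr11:119044188-119045493, plus strand), opposite the chaperone gene HYOU1, had 3.64, 2.81 and 2.73 CPM in DMSO, 22.1, 16.1 and 16.9 with rakicidin A and 20.2, 17.9 and 17.1 with BE-43547A1. Treated libraries were all above DMSO and overlapped each other. It rose by 2.59 with each compound, while HYOU1 rose by 2.48 and 1.85. RP11-498C9.2 (chr17:81843165-81843958, plus strand), opposite P4HB, a protein disulfide isomerase, rose by 2.01 and 2.55, and P4HB by 1.87 and 1.42. TTC41P (RP11-642P15.1), a pseudogene opposite HSP90B1, the ER form of HSP90, rose by 2.96 and 4.13, and HSP90B1 by 2.86 and 2.41. Whether overlapping reads were separated by strand is not known here. Of the 76-base windows, 88.3% of those of RP11-110I1.6 and 84.8% of those of RP11-498C9.2 occur in coding transcripts.

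TBC1D8-AS1 (RP11-299H21.1) fell by 2.94 and 2.82 opposite TBC1D8, which fell by 1.12 and 0.96. MOCS2-DT (CTD-2366F13.1) fell by 2.64 and 2.79, and MOCS2, an enzyme of molybdenum cofactor synthesis, by 0.42 and 1.08. RP11-372K14.2, opposite SH3D19, had 0.0306, 0.0948 and 0.0284 CPM in DMSO, 0.182, 0.320 and 0.344 with rakicidin A and 1.98, 1.63 and 1.52 with BE-43547A1. Its mean counts were 1.7, 7.7 and 70.7 in DMSO, rakicidin A and BE-43547A1, so it passed the minimum of 20 only through the BE-43547A1 libraries, and a rise there is favoured by that choice. The groups were apart: the changes were 2.40 and 4.99 and the direct difference -2.60 (adjusted p = 7e-07, edgeR). SH3D19 had log2 changes of 0.28 and 0.08 (adjusted p = 0.33).

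Among lincRNAs, LINC02818 (RP11-12M5.4, chr1:179829609-179836124, minus strand, 2 exons) rose with both compounds and lies 3843 bases from TOR1AIP2, which encodes a protein of the ER and nuclear membrane. Its CPM was 0.0306, 0.0316 and 0.0568 in DMSO, 1.38, 1.69 and 1.68 with rakicidin A and 4.90, 4.50 and 4.81 with BE-43547A1. The DMSO values rest on 1, 1 and 2 counts, and no group overlapped another. The log2 changes were 5.18 (SE 0.35) and 6.76 (SE 0.28), the direct difference -1.58 (adjusted p = 1.2e-07, edgeR), and TOR1AIP2 rose by 0.43 and 0.51.

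The widest direct difference of any named locus was that of RP3-393E18.2 (chr6:159586955-159589169, minus strand), whose nearest coding gene, SOD2, mitochondrial superoxide dismutase, lies 79888 bases away. It had 0.214, 0.158 and 0.256 CPM in DMSO, 1.56, 2.49 and 1.29 with rakicidin A and 22.6, 26.5 and 20.6 with BE-43547A1. The 3 groups were far apart. It rose by 3.09 (SE 0.33) and 6.76 (SE 0.22), and the direct difference was -3.67 (SE 0.16, adjusted p = 1.9e-11, edgeR). SOD2 rose by 2.73 and 2.88, with a direct difference of -0.16 (adjusted p = 0.015).

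RP11-791G15.2 (opposite ATP6V1C2, a proton pump subunit) had a mean of 0.766 ± 0.10 CPM in DMSO, 6.52 ± 0.73 with rakicidin A and 15.5 ± 0.80 with BE-43547A1 (SD, n = 3). LINC02986 (RP11-48B3.4) had 1.47 ± 0.16, 7.45 ± 0.54 and 17.3 ± 0.78 CPM, and its neighbour ZBTB10, a zinc finger repressor, rose by 2.61 and 2.84. RP11-680H20.2 rose by 4.38 with rakicidin A and 3.90 with BE-43547A1, and its direct difference of 0.48 did not pass (adjusted p = 0.077, edgeR). RP4-676J13.2 had log2 changes of 3.38 and 5.04 and RP11-255H23.4 of -0.02 (adjusted p = 0.96) and 2.56. The last had 0.694 ± 0.14, 0.675 ± 0.16 and 4.08 ± 1.6 CPM in the 3 groups, so that only the BE-43547A1 libraries differed from DMSO.

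LINC02593 (RP11-54O7.3, chr1:916865-921016, minus strand, a single exon) fell with both compounds, further with rakicidin A. It had 19.6, 18.7 and 20.1 CPM in DMSO, 1.67, 1.66 and 1.50 with rakicidin A and 2.88, 2.79 and 3.03 with BE-43547A1. The groups were apart, rakicidin A the lowest. The changes were -3.58 (SE 0.11) and -2.75 (SE 0.09), with a direct difference of -0.84 (adjusted p = 3.6e-05, edgeR). SAMD11, a gene 2912 bases away, had log2 changes of -1.43 and -1.22, and RP11-54O7.1, a lincRNA of the same clone, of -2.74 and -2.07.

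LINC01224 (CTB-175P5.4, chr19:23399233-23416075, minus strand, 10 exons) had 2.87, 2.91 and 3.44 CPM in DMSO, 0.437, 0.256 and 0.258 with rakicidin A and 0.472, 0.544 and 0.314 with BE-43547A1. Treated libraries were below all DMSO libraries and overlapped each other. It fell by 3.26 and 2.78, and ZNF91, a zinc finger gene known for the repression of retroelements, by 0.69 and 0.85. DANT2 (RP11-761E20.1) had log2 changes of -2.94 and -2.91 and LINC02475 (RP11-328N19.1) of -2.64 and -3.31, and neither differed between the compounds at an adjusted p below 0.05 (differences -0.04 and 0.67, adjusted p = 0.95 and 0.075, edgeR).

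**Figure D4:**
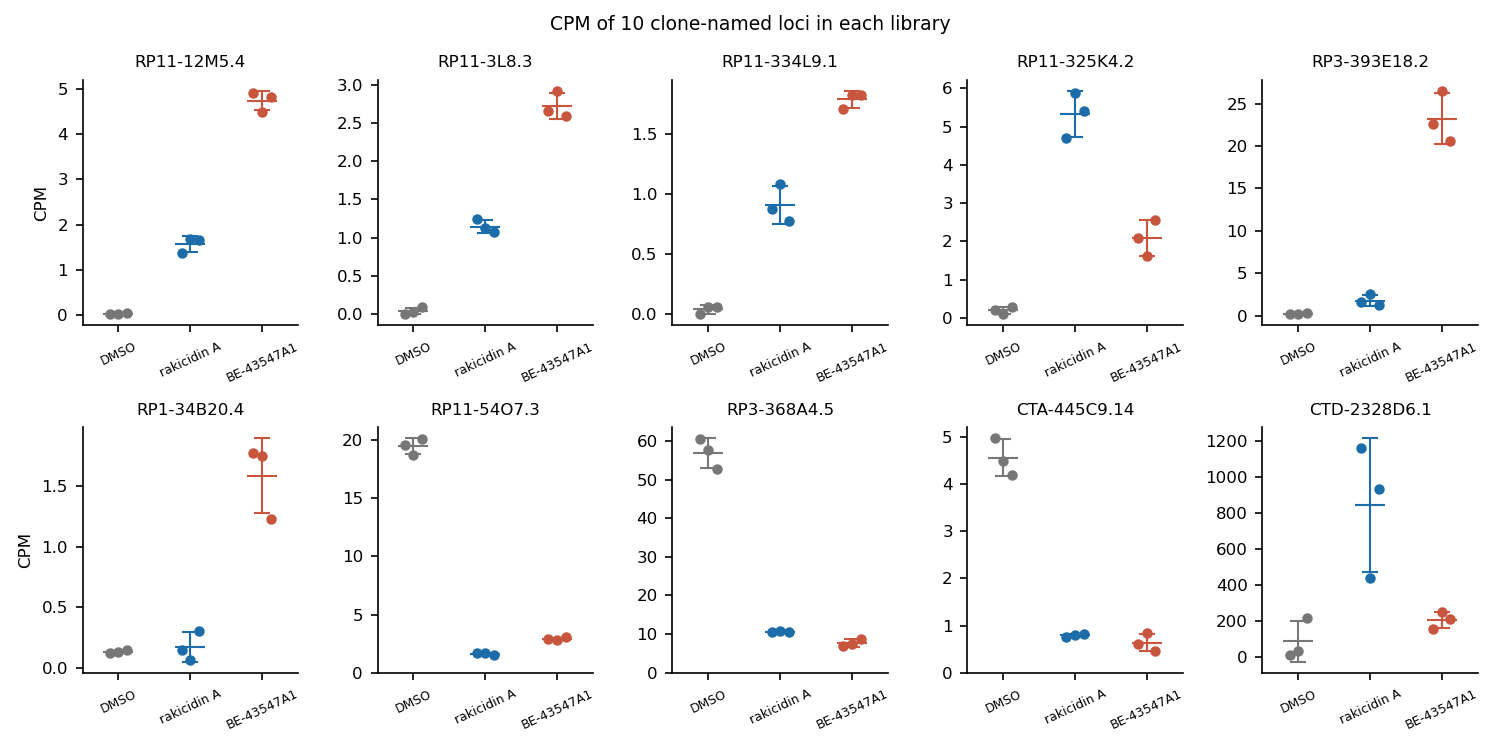
CPM (linear axes, 1 panel per locus) of 10 named loci by library, with points for libraries and a bar for the mean ± SD of each group of 3. RP3-393E18.2 lies at 20.6 to 26.5 CPM with BE-43547A1 and under 2.5 with rakicidin A, while LINC02593 (RP11-54O7.3) lies at 18.7 to 20.1 in DMSO and under 3.1 with either compound.

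Among 562 pseudogenes, 557 had a parent found by sequence comparison and 538 a parent that was tested, 411 different genes in all. For 283 the current name gives a parent, and 268 of these had the same one by sequence. The median identity was 94.6%. Their median level, as CPM per kb of exon, was 16.6% of the parent's (quartiles 4.77% and 61.5%), and 91 lay above the parent, where the parent's length counts the exons of all its transcripts. Of the 509 processed pseudogenes, 189 held no 76-base window that also occurs in a coding transcript.

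Pseudogenes and their parents were compared next. Across the 538 pairs the log2 changes correlated with r of 0.67 for rakicidin A, 0.57 for BE-43547A1 and 0.49 in the direct contrast, and across the 244 pairs of at least 95% identity with 0.78, 0.64 and 0.59. Where both were called, the direction was shared by 181 of 200 pairs with rakicidin A, 195 of 231 with BE-43547A1 and 131 of 143 directly. In other pairs a single member was called: the parent in 164, 156 and 167 pairs and the pseudogene in 43, 71 and 76, in the same order of comparisons. Several pseudogenes share a parent, and reads of near-identical copies can be assigned to either, so these pairs are not independent measurements.

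Ribosomal protein genes were the parents of 117 of these pseudogenes, across which r was 0.21, 0.16 and 0.20. With rakicidin A 11 rose and 25 fell, with BE-43547A1 51 rose and 12 fell, and in the direct contrast 6 were higher and 59 lower. Of the 421 with other parents, 120 rose and 87 fell with rakicidin A, and 154 and 85 with BE-43547A1. Directly, 66 of the 421 were higher and 88 lower. The shares over all features were 31.9% and 32.7%, 35.3% and 35.1%, and 24.1% and 22.5%. The direct median of the ribosomal protein pseudogenes was -0.38, and that of their parents -0.22.

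**Figure D5:**
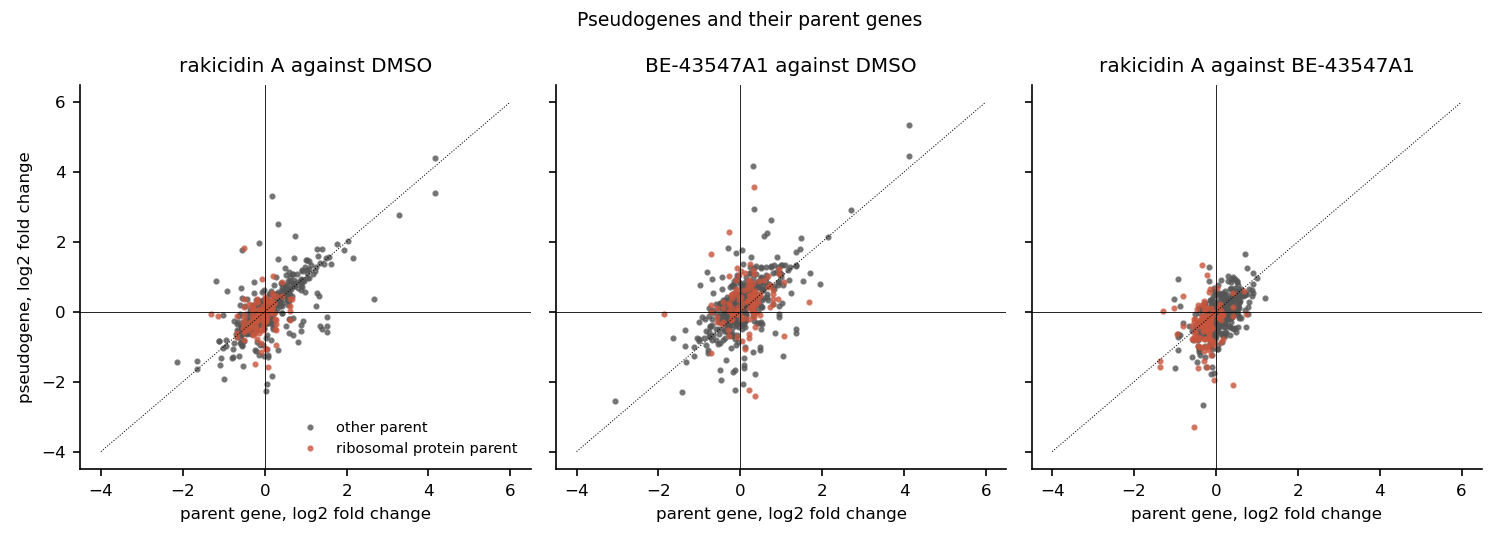
Log2 fold change of each pseudogene (vertical axis) against its parent gene (horizontal axis), on the TMM scale, in 3 panels for the contrasts, with ribosomal protein parents in their own colour. Points follow the diagonal (r 0.67, 0.57 and 0.49 over 538 pairs), and the ribosomal protein pairs form a compact group near 0 (r 0.21, 0.16 and 0.20).

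HSPA5 encodes BiP, the main Hsp70 chaperone of the ER, and 2 of its pseudogenes rose with both compounds. HSPA5P1 (RP11-334L9.1, chr1:38708931-38710890, plus strand) had 0, 0.0632 and 0.0568 CPM in DMSO, 0.873, 1.09 and 0.773 with rakicidin A and 1.71, 1.83 and 1.83 with BE-43547A1. All groups were apart. It rose by 4.40 (SE 0.46) and 5.35 (SE 0.39), and RP11-39C10.1 by 3.41 and 4.46, beside 4.16 and 4.12 for HSPA5, from 114 CPM in DMSO to 2041 and 1978. Per kb of exon, HSPA5P1 stood at 0.132% and RP11-39C10.1 at 0.176% of HSPA5. In the stretch printed above HSPA5P1 differs from HSPA5 at 1 base and RP11-39C10.1 at 3, and whether reads of HSPA5 were counted on them was not tested.

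RP1-34B20.4 (chr6:26202156-26202654, plus strand) differs from RPS10, a protein of the small ribosomal subunit, at 6 bases of the stretch shown. It had 0.122, 0.126 and 0.142 CPM in DMSO, 0.146, 0.0639 and 0.301 with rakicidin A and 1.78, 1.75 and 1.23 with BE-43547A1. With mean counts of 4.3, 4.3 and 65.7 in these groups, it passed the minimum of 20 only through the BE-43547A1 libraries, so a rise there is favoured by that choice. The DMSO and rakicidin A libraries overlapped, and the BE-43547A1 libraries were above both. The changes were 0.28 (adjusted p = 0.69) and 3.57 (adjusted p = 3.4e-08), and the direct difference was -3.29 (SE 0.35, adjusted p = 5.1e-07, edgeR), while RPS10 had changes of -0.20 (adjusted p = 0.31) and 0.34 (adjusted p = 0.064). It lies 2913 bases from the nearest histone gene, with 5 histone genes within 50 kb. The more highly counted RPS10 copy RP11-425L10.1 had 213, 191 and 163 CPM in DMSO, 160, 168 and 154 with rakicidin A and 194, 190 and 179 with BE-43547A1. It fell by 0.23 (adjusted p = 0.012, edgeR) with rakicidin A, which did not pass without DMSO replicate 1 (-0.14, adjusted p = 0.10) or without rakicidin A replicate 1 or 3 (adjusted p = 0.051 and 0.076).

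Of the 10 loci with the highest mean CPM, 8 were processed pseudogenes, and the most counted did not pass in any contrast. RP11-466H18.1 (chr11:16974693-16975013, minus strand, within PLEKHA7) had 544, 517 and 463 CPM in DMSO, 472, 465 and 458 with rakicidin A and 449, 509 and 495 with BE-43547A1. The groups overlapped, and the changes of -0.13 (adjusted p = 0.092) and -0.07 (adjusted p = 0.36) did not pass in edgeR. Without DMSO replicate 3 they were -0.19 (adjusted p = 0.0048) and -0.14 (adjusted p = 0.028). RPL36A, identical to it in sequence, had log2 changes of -1.13 and -1.87. The loci whose log CPM was most like that of RP11-466H18.1 over the 9 libraries were RP4-706A16.3 (r 0.84), RP11-119F7.5 (r 0.83) and RP11-67L2.2 (r 0.80).

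RPL22P1 (RP11-641D5.1) had 425, 393 and 332 CPM in DMSO, 272, 230 and 254 with rakicidin A and 328, 339 and 364 with BE-43547A1. Rakicidin A libraries were below all others. It fell by 0.60 (adjusted p = 2.3e-06) with rakicidin A, and had a change of -0.16 (adjusted p = 0.083) with BE-43547A1 in edgeR, or -0.26 (adjusted p = 0.0010) without DMSO replicate 3. RPL23AP42 (RP11-3P17.3) had log2 changes of -0.38 (adjusted p = 0.00024) and 0.03 (adjusted p = 0.72), and RPS27AP16 (RP11-51O6.1) of 0.08 (adjusted p = 0.42) and 0.48 (adjusted p = 2.9e-05) in edgeR. RAP1BL (RP11-466P24.2), a copy of the small GTPase gene RAP1B, had 249, 238 and 244 CPM in DMSO, 443, 432 and 482 with rakicidin A and 429, 457 and 483 with BE-43547A1. It rose by 0.89 and 0.91, beside 0.97 and 1.18 for RAP1B, with treated libraries overlapping each other.

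CTD-2328D6.1, which has no entry in release 29, differed between libraries of a group more than any other clone-named locus in DMSO. Its counts were 363, 1160 and 7687 in DMSO, 31832, 13686 and 21756 with rakicidin A and 6965, 10062 and 8171 with BE-43547A1. The rakicidin A libraries were above all others, and DMSO replicate 3 lay within the BE-43547A1 values. The change was 3.24 (SE 0.63, adjusted p = 0.00019) with rakicidin A and 1.21 (adjusted p = 0.076) with BE-43547A1, or 3.11 (adjusted p = 1.2e-07) for the latter without DMSO replicate 3. The direct difference of 2.03 had an adjusted p of 0.0093 in edgeR and 0.087 in DESeq2. DMSO replicate 3 also had the highest mitochondrial share of the DMSO libraries, and its part in these values was not tested.

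Some loci were higher with rakicidin A than with BE-43547A1. RP1-281H8.3, a copy of CCDC59 on chromosome 6 (chr6:149491567-149492289, minus strand), had 8.04, 11.8 and 10.8 CPM in DMSO, 19.7, 21.5 and 20.1 with rakicidin A and 6.39, 6.28 and 6.82 with BE-43547A1. It rose by 1.00 with rakicidin A and fell by 0.66 with BE-43547A1, with a direct difference of 1.66 (SE 0.11, adjusted p = 2.4e-09, edgeR). RP11-98F14.11 had log2 changes of 2.95 and 1.39, RP11-108O10.2 of 1.70 and 0.17 (adjusted p = 0.71), and RP11-686D22.4 of 1.26 and -0.25 (adjusted p = 0.49), with direct differences of 1.56, 1.53 and 1.51. RP11-16P6.1 fell less with rakicidin A, by 0.87 against 2.38. CTD-2313D3.1, a copy of ACTG1 at 85.3% identity, had log2 changes of -0.04 (adjusted p = 0.95) and 2.63, and CIDECP2 (RP11-723O4.3) of 2.51 and 5.19. Both of these passed the minimum of 20 counts only through the BE-43547A1 libraries, which favours a rise there. RP11-108O10.2 averaged 12, 32 and 16.7 counts in DMSO, rakicidin A and BE-43547A1. It passed that minimum only through the rakicidin A libraries, which favours its rise there and its direct difference.

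Other noncoding RNAs and the RNA decay machinery gave a setting for these loci. Over all features tested, 31.9% rose and 32.7% fell with rakicidin A, and 35.3% rose and 35.1% fell with BE-43547A1. Directly, 24.1% were higher and 22.5% lower. Of 16 tested host RNAs of small nucleolar RNAs, 12 rose and none fell with rakicidin A, and 6 rose and 1 fell with BE-43547A1. In the direct contrast 12 of these host RNAs were higher and 1 lower. SNHG7 rose from 24.3 to 45.3 CPM with rakicidin A and had 24.0 with BE-43547A1, and ZFAS1 rose by 1.17 and 0.98. Of 19 tested long noncoding RNAs with common names, 5 rose and 8 fell with rakicidin A and 5 rose and 9 fell with BE-43547A1, with 5 higher and 6 lower directly. Of 9 microRNA host RNAs, 4 rose and 4 fell with rakicidin A and 5 rose and 4 fell with BE-43547A1, with 3 higher and 3 lower directly.

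Among 30 genes of nonsense-mediated and nuclear RNA decay, 15 rose and 6 fell with rakicidin A, and 11 rose and 11 fell with BE-43547A1. Of these genes, 21 were higher and 1 lower with rakicidin A than with BE-43547A1 (median 0.38 against -0.02 over all features). In that contrast 24.1% of all features were higher and 22.5% lower. Of other GENCODE rows averaging 1000 counts and over, 47.8% were higher and 18.4% lower, with a median of 0.14. DIS3, the catalytic subunit of the nuclear exosome, had 95.6 CPM in DMSO, 290 with rakicidin A and 173 with BE-43547A1, a direct difference of 0.75 (adjusted p = 1.6e-08, edgeR). ZCCHC8, a scaffold of the complex that feeds nuclear RNA to the exosome, had log2 changes of 1.24 and 0.74, and its partner RBM7 of 1.12 and 1.03. EXOSC9, an exosome core subunit, had 52.3, 48.3 and 25.2 CPM, a change of -0.12 (adjusted p = 0.16) with rakicidin A and of -1.05 with BE-43547A1. A relation of these levels to those of the clone-named loci was not tested.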

How the data were processed

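PANC-1 total RNA was sequenced as 76-base pairs in 9 libraries, 3 per group. The deposited table holds raw counts per gene, made by the authors with TopHat2 and HTSeq on GRCh37/hg19 per the submitters' processing notes. The strand setting is not given in the sources used here. Entries for reads without a feature were set aside, and 0 columns belonged to other samples. All 22353 features that passed filterByExpr were fitted in edgeR 4.0.16 (R 4.3.3) with TMM scaling, a quasi-likelihood test with 1 mean per group, and Benjamini-Hochberg adjustment. CPM values are TMM-scaled. DESeq2 1.42.0 and limma 3.58.1 (voom) were alternatives. The fit was tested on simulated data. Classes, positions and coordinates came from GENCODE release 29 (GRCh38), matched by Ensembl identifier, since no GRCh37 annotation was used here. Parents were found with blastn 2.17.0 among coding transcripts.

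The loci and lists were chosen with earlier results of these data known. Loci were named by rule: the 10 steepest rises and the 10 steepest falls of either compound, and 6 loci each way in the direct contrast, among called loci of at least 0.5 CPM whose groups did not overlap; the 10 with the highest mean CPM; up to 3 per class with the smallest product of p-values; 5 on either side of the minimum; and the 3 most like the most counted locus. Intervals and floors cover counting error only. Other settings were other scalings, filters, minimums, subsets, thinning to the smallest total, a replicate block and leaving out each library.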

Additional observations from a re-analysis of the deposited data

Results flagged for a closer look

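The 25 loci called in opposite directions by the compounds were singled out because the compounds' effects differed under the same contrast: all 25 had a called direct difference (edgeR, adjusted p below 0.05), 7 of them higher and 18 lower with rakicidin A than in DMSO. The direct contrast is the difference of the changes by which these loci were chosen. Its calls were thus nearly fixed in advance and add no support. The 25 were among 1493 loci, and over all features tested 573 of 22353 (2.56%) had opposite calls. Both contrasts share the DMSO libraries. RP1-281H8.3 had a direct difference of 1.66, with 10.2 ± 2.0 CPM in DMSO, 20.4 ± 0.93 with rakicidin A and 6.50 ± 0.29 with BE-43547A1 (SD, n = 3). CCDC59, its parent, had 57.8, 89.4 and 55.0 CPM.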

How the results depend on the processing

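With rakicidin A against DMSO, 411 loci rose and 445 fell. Under total counts alone the counts were 248 and 703, and with a log2 change of at least 1 they were 191 and 224. At a mean count of at least 50 the falls were 260, and at a mean of at least 100 there were 182 and 155. Between 20 and 50 counts, 127 rose and 185 fell. The excess of falls thus came from that bin, and rises outnumbered falls at either stricter minimum. With BE-43547A1 (554 and 440), the counts were 303 and 236 at a log2 change of at least 1, 351 and 254 at a mean of 50, and 208 and 154 at a mean of 100. Between the compounds (236 and 421), they were 36 and 135 at a log2 change of at least 1, 259 lower at a mean of 50, and 128 and 151 at a mean of 100. In that contrast 53 loci between 20 and 50 counts were higher and 162 lower. Stricter minimums leave fewer loci, 848 and 501. DESeq2 called 352 and 361, 493 and 379, and 197 and 293.

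The share of counts differed by -0.13 percentage points (rakicidin A against DMSO) and -0.075 (between compounds) at a mean of at least 100, and, an alternative added after seeing the data, by -0.24 and -0.16 without CTD-2328D6.1. Leaving out each library in turn gave 377 to 423 rises and 388 to 441 falls with rakicidin A, 525 to 555 and 396 to 440 with BE-43547A1, 198 to 254 higher and 338 to 434 lower between the compounds, and shares of -0.19 to -0.15, -0.08 to -0.05 and -0.12 to -0.08.

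No pairing by replicate number was seen, which 3 libraries per group cannot exclude. In their deviations, same-numbered libraries correlated between -0.057 and 0.12 and differently numbered ones between -0.097 and 0.092. With a replicate block the counts were 411 and 446, 558 and 442, and 237 and 426. Of 1680 refits of 120 values of named loci, 1640 kept their direction and side of the threshold, 13 lost and 24 gained a call, and 3 turned direction, all under total counts alone: RP11-3P17.3 with BE-43547A1 (-0.21), RP11-475C16.1 (-0.28) and RP11-51O6.1 (-0.28) with rakicidin A. Of the loci, 645 average under 50 counts.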

Other observations

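A further group, chosen after its values were seen, was that of loci within 50 kb of a histone gene. Of 7 such loci, 6 rose and none fell with BE-43547A1 (median log2 change 0.84), and 1 rose and 3 fell with rakicidin A (median -0.15). None was higher and 6 were lower with rakicidin A than with BE-43547A1 (median -1.12). Over all features tested, 35.3% rose and 35.1% fell with BE-43547A1, and 31.9% rose and 32.7% fell with rakicidin A. In the direct contrast 24.1% were higher and 22.5% lower. The group includes RP1-34B20.4 beside HIST1H2AD, RP1-86C11.7 at 2676 bases from HIST1H2BJ, RP11-174G6.5 at 68 bases from HIST4H4 and RP11-196G18.22 beside a cluster of 8 histone genes. RP1-34B20.4 passed the minimum only through the BE-43547A1 libraries, which favours a rise there. CTC-349C3.1 and RP11-15B17.1 overlap H2AFY and H2AFZ. RP11-110I1.6, the locus opposite HYOU1, lies 48361 bases from H2AFX and was the member that rose with rakicidin A. HIST1H2BJ changed by 0.31 and 0.57 and HIST4H4 by 0.32 and 0.65 with rakicidin A and BE-43547A1. Since the group was formed on these values, its counts carry no test.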
